A study of Mus musculus with 3 samples.

Results

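The complement genes described here are 9 named genes of the complement system: the C1q chain genes C1qa, C1qb and C1qc, the alternative pathway genes C3, Cfb and Cfp, the anaphylatoxin receptor genes C3ar1 and C5ar1, and Serping1, the gene of the C1 inhibitor. They were taken by gene symbol, 1 row each, from 55536 rows that name a gene, 22028 of them protein-coding. The cells were primary macrophages derived from bone marrow of C57BL/6J mice, and total RNA of their cytosolic fraction was sequenced after removal of ribosomal RNA. All 3 libraries, numbered as biological replicates 1 to 3, belong to 1 group: lipid A, the membrane anchor of bacterial lipopolysaccharide, was given at 100 ng/ml for 12 h and washed out for 12 h, and cells were taken at 0 min of the second stimulation. The labels give the 3 libraries 1 donor identifier and leave it unsaid if each had its own animal, so their spread may be technical. Sex and age were not collected, per the labels. No group without lipid A was analysed here, so the values are levels and say nothing of what lipid A changed.

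Complement is a cascade of plasma proteins that tags particles for uptake and calls in leukocytes. In the classical pathway C1q binds antibody or other ligands and starts the proteases C1r and C1s. In the alternative pathway C3b binds factor B, the product of Cfb, and properdin, the product of Cfp, holds the resulting enzyme together. Both pathways cleave C3, and the fragments C3a, from C3, and C5a, from C5, act on the receptors encoded by C3ar1 and C5ar1. The liver makes most plasma C3, whereas macrophages are a known source of C1q and properdin.

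The 3 C1q chains each hold a collagen-like part with runs in which each 3rd residue is glycine. This shared feature sets them apart from the other members at the sequence level. In the annotated coding sequences the longest run of glycine codons (GGN) at each 3rd codon had 16 repeats in C1qa (codons 62 to 109, counted from the start codon), 29 in C1qb (codons 31 to 117) and 16 in C1qc (codons 68 to 115). The other 6 members reached at most 2 repeats, which was also the median over 21901 genes with a coding sequence. Runs of 15 or more occurred in 73 of these genes, or 0.333%. The longest unbroken run need not cover the whole collagen-like part. The first 63 bases of each run are shown in the sense direction from the annotated transcripts C1qa-201, C1qb-201 and C1qc-201, with the glycine codons in capitals.
C1qa: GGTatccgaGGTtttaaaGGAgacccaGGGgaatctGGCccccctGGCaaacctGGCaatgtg
C1qb: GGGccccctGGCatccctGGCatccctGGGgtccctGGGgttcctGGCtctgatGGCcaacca
C1qc: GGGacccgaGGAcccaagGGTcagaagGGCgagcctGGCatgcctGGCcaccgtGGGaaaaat

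Promoter windows from RefSeq (GRCm38.p6) matched 6 of the 9 members: C1qb, C1qc, C3ar1, C5ar1, C3 and Cfp. The windows of C1qb and C1qc are shown because these neighbouring genes had the highest levels among the members. Bases upstream of both the RefSeq and the GENCODE start are printed on the minus strand, the strand of the genes, and capitals mark the core motif of PU.1 (GAGGAA on either strand), a transcription factor of the macrophage lineage.
C1qb (chr4:136886201-136886450): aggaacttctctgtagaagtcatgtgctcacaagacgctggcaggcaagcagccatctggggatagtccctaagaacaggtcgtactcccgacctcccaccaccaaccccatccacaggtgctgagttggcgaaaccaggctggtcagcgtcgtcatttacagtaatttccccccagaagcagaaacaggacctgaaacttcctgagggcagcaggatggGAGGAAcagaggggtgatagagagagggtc
C1qc (chr4:136893066-136893164): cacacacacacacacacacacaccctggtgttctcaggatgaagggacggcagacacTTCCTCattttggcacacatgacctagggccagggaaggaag

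The PU.1 core lay at -30 to -25 from the RefSeq start in C1qb and at -193 to -188 in C1qc. The GENCODE start lies downstream of the RefSeq start in C1qb and upstream of it in C1qc. Measured from the GENCODE start, the positions in these genes lie closer to each other. The PU.1 core occurred in 28.3% of all 32851 windows of the same length, so a match is common. The Cfp window held it only downstream of the start, and those of C3, C3ar1 and C5ar1 did not hold it. The window of C3ar1 held the AP-1 motif TGANTCA at -22 to -16, which 7.81% of windows hold. The NF-kB motif, found in 8.46% of windows, occurred only in that of C1qc, at -41 to -32, past the GENCODE start. Of the interferon motifs, the GAS (TTCNNNGAA, 8.3% of windows) and the ISRE (GAAA repeated after a gap of 2 bases, 3.44%) were in none of the 6. All motifs were searched on both strands, and no match overlapped one of another motif. These matches are letters in a window and were set against no binding data.

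Levels are given in TPM, a share of all transcripts in a library that is scaled for gene length. The libraries held 28981178, 53119941 and 46783133 estimated counts on genes. The noncoding 7SL genes, whose RNA belongs to the signal recognition particle, took 52.5 to 65.3% of all TPM and protein-coding genes 27.2 to 31.6%, so each TPM value depends on that share. The 9 members together held 0.689, 0.611 and 0.635% of gene counts in replicates 1, 2 and 3. All 6 macrophage markers were at 10 TPM or more in every library, and 3 of 44 markers of other cell types reached 1 TPM: S100a9 (4.54 ± 1.70 TPM), Vwf (3.57 ± 0.406) and S100a8 (2.96 ± 0.813; SD, n = 3). The 5 hepatocyte markers had no counts.

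Of the 9 members, 8 were at 1 TPM or more in every library, as were 41.2% of protein-coding genes. At 100 TPM or more in every library there were 5 members, C1qa, C1qb, C1qc, Cfp and C3ar1, and 1.73% of protein-coding genes. In the transcript tables made directly from the reads, only C1qb and C1qc of the members stayed at 100 TPM or more in every library. The members had been named with their levels known, so these counts describe them and test nothing. In these bulk RNA samples, fewer cells that express a gene and less RNA per cell cannot be told apart.

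**Figure D1:**
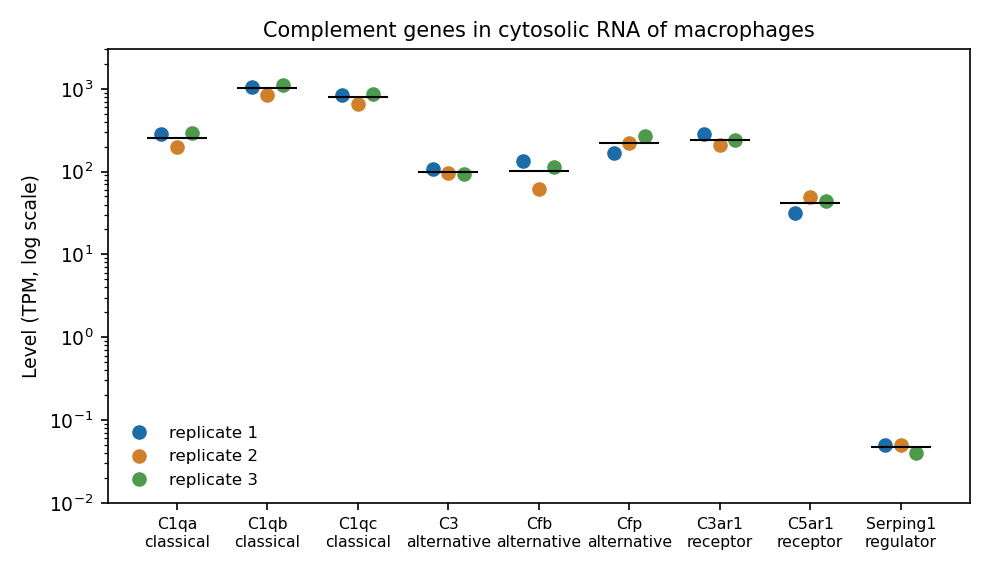
TPM of the 9 complement genes (log axis) in each library, with colours for replicates 1 to 3 and a bar at the mean. The 3 C1q chains lie between 200.2 and 1120 TPM, C3, Cfb and Cfp between 61.7 and 271 TPM, and Serping1 at 0.05 TPM or less.

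By mean TPM, C1qb and C1qc were the highest of the listed complement genes, while the range of C1qa overlapped that of C3ar1. C1qb lies on the minus strand of chromosome 4 (136880129 to 136886187, mm10) and held 1059, 843 and 1120 TPM in replicates 1, 2 and 3, a mean of 1007 ± 145 (SD, n = 3). It ranked 21st by mean TPM among protein-coding genes. C1qc (chromosome 4, 136889804 to 136893065, same strand) held 835, 646 and 872 TPM, a mean of 784 ± 121, and ranked 31st. C1qa (chromosome 4, 136895917 to 136898803, same strand) was the lowest chain, at 283, 200.2 and 290 TPM, a mean of 258 ± 49.8, and ranked 120th. All 3 chains were lowest in replicate 2 on the TPM scale.

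The C1q protein contains its 3 chains in equal number, but the chain RNAs were not at equal levels. The TPM of C1qb was 1.27, 1.30 and 1.28 times that of C1qc in replicates 1, 2 and 3, so C1qb was higher in 3 of 3 libraries although the ranges of the pair overlap. C1qc exceeded C1qa 2.95, 3.23 and 3.01 times. The ratio of C1qb to C1qa was 3.75, 4.21 and 3.86. The mean ratios were 1.29 ± 0.018 for C1qb to C1qc, 3.06 ± 0.145 for C1qc to C1qa and 3.94 ± 0.241 for C1qb to C1qa (SD, n = 3). The transcript tables made directly from the reads gave 1.27 ± 0.0203 for C1qb to C1qc, 3.04 ± 0.137 for C1qc to C1qa and 3.85 ± 0.234 for C1qb to C1qa (SD, n = 3).

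The C1q genes lie side by side in the order C1qb, C1qc, C1qa on 18.7 kb of chromosome 4, with gaps of 3.62 and 2.85 kb. The nearest protein-coding genes on either side, the ephrin receptor genes Epha8 and Ephb2, had no counts and 0.01 to 0.05 TPM. The high level was seen for the 3 chain genes and for neither of these neighbours. C1qa and C1qb have 1 annotated transcript model each, C1qa-201 and C1qb-201. Of the 2 models of C1qc, C1qc-202, which has no annotated coding sequence, held 0.0551, 0.0743 and 0.345% of C1qc.

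C3, the protein on which the pathways converge, was expressed by these macrophages at a lower TPM than any C1q chain. C3 lies on chromosome 17 (57203970 to 57228136, minus strand) and had levels of 109, 97.4 and 93.7 TPM in replicates 1, 2 and 3, a mean of 100.0 ± 7.87 (SD, n = 3), the 465th place among protein-coding genes. Its TPM values were highest in replicate 1, and on TMM-scaled counts its highest library was 1.37 times its lowest. All of its TPM was assigned to the full-length model C3-201, which has 41 exons.

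Cfp encodes properdin, the positive regulator that stabilises the alternative pathway convertase. Cfp lies on chromosome X (20925454 to 20931555, minus strand) and reached 167, 219 and 271 TPM, a mean of 219 ± 52.0 (SD, n = 3), and ranked 162nd. It exceeded C3 in 3 of 3 libraries, 1.53, 2.25 and 2.89 times. Cfp-201 held 98.3, 97.8 and 98.2% of its TPM.

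Cfb encodes factor B, the protease subunit of the same convertase. Cfb lies on chromosome 17 (34856374 to 34862518, minus strand) and had 133, 61.7 and 113 TPM, a mean of 102 ± 36.6 (SD, n = 3), and ranked 452nd. Replicate 2 was the low library. Cfb stood above C3 in replicates 1 and 3, by 1.22 and 1.20 times, and below it in replicate 2, at 0.633 times. The order of these 2 genes is not settled: the tables made from the reads put C3 above Cfb on average.

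Set against each other as averages, the classical recognition chains exceeded the alternative components in every library. C3 was counted on the alternative side although both pathways cleave it, and the comparison was not run without it. The mean log2(TPM + 1) of C1qa, C1qb and C1qc was 9.30, 8.90 and 9.36 in replicates 1, 2 and 3, and that of C3, Cfb and Cfp was 7.08, 6.79 and 7.16. The difference was 2.23, 2.11 and 2.20, a mean of 2.18 ± 0.06 (SD, n = 3), or 4.53-fold. Summed TPM of the chains was 5.33, 4.47 and 4.78 times that of the alternative components. The lowest chain and the highest alternative component did not separate: C1qa was 1.69 times Cfp in replicate 1, 0.914 times in replicate 2 and 1.07 times in replicate 3. Summed over all 10 listed classical genes the TPM was 2182.2, 1692.4 and 2286.1, against 408, 378 and 477 for the 4 listed alternative genes. The 3 chains alone held 2176, 1690 and 2281 TPM of the classical sum. By the median gene of each list the order was reversed. That median averaged 0.597 TPM for the 10 classical genes and 101 TPM for the 4 alternative genes. The log2 mean depends on which genes are included: with Serping1, a regulator near 0 TPM, counted on the classical side and the alternative side left as it was, the difference was -0.10.

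The remaining genes of the classical pathway were low. C1ra, encoding the first protease of the C1 complex, held 4.20, 2.02 and 3.23 TPM, and C1s1, encoding its partner, 0.02, 0.07 and 0.06 TPM. C2 and C4b encode the components that the complex cleaves. C2 held 0.68, 0.37 and 0.82 TPM, and C4b, a close relative of C4a, 0.78, 0.31 and 0.62 TPM. Of the 10 classical genes listed, 4 were at 1 TPM or more in every library, namely the C1q chains and C1ra. Of the 4 alternative pathway genes, 3 were. The other one, Cfd, named after its value was seen, encodes factor D, the protease that cleaves factor B, and had no counts in any library, which allows up to 0.104, 0.0565 and 0.0641 CPM (read counts scaled to the library total).

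Outside these 2 pathways, membrane regulators and receptors held the listed genes with higher levels. In the lectin pathway 1 of 8 genes reached 1 TPM, Fcna, encoding a ficolin, at 1.99, 1.87 and 2.75 TPM. In the terminal pathway, which forms the membrane pore, 0 of 7 did, and the highest was C8g at 0.59, 0.23 and 0.35 TPM. Of 8 fluid-phase regulators, Serping1 among them, none did. Of 7 membrane regulators 3 reached 1 TPM: Cr1l (Crry), which protects mouse cells from C3 deposition, held 23.2, 21.5 and 23.2 TPM, and Cd55 and Cd59a held means of 2.59 and 1.47 TPM. Over all 54 listed genes, 17 reached 1 TPM in every library, 9 of them outside the members, and 15 had no counts at all.

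**Figure D2:**
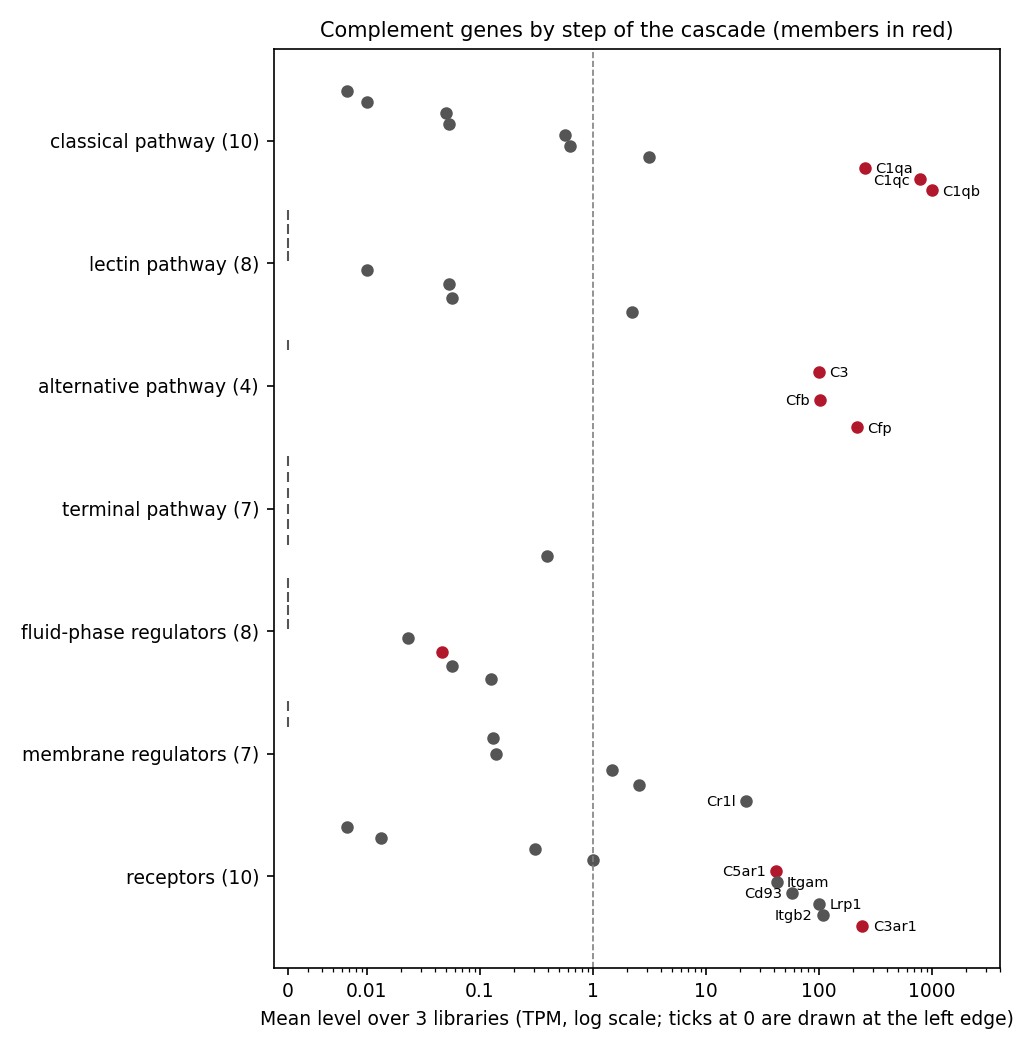
Mean TPM over the 3 libraries (log axis, genes listed at 0 as ticks at the left) of 54 complement genes by step, with the number of genes in parentheses, the 9 members in red and a dashed line at 1 TPM. The C1q chains, C3, Cfb, Cfp, the membrane regulator Cr1l and 6 receptor genes lie above 10 TPM, Cfd is at 0, and no terminal pathway gene or fluid-phase regulator reaches 1 TPM.

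Serping1 encodes the C1 inhibitor, which removes C1r and C1s from the C1 complex. It was the 1 member near the detection limit. Serping1 (chromosome 2, 84765387 to 84775444, minus strand) had 3, 8 and 4 estimated counts in replicates 1, 2 and 3, or 0.05, 0.05 and 0.04 TPM. In CPM this was 0.104 (95% exact Clopper-Pearson interval 0.0213 to 0.302), 0.151 (0.0650 to 0.297) and 0.0855 (0.0233 to 0.219), which cover counting error only. The 3 intervals overlap, and the limit that a count of 0 allows was 0.0565 to 0.104. Of its 5 neighbours within 50 kb, 1 averaged 10 TPM or more and 3 averaged under 1 TPM. The high one, Ube2l6, encoding an enzyme of ISG15 conjugation, held 124, 96.9 and 112 TPM.

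The receptors for the released fragments were both expressed, at unequal levels. C3ar1, encoding the C3a receptor, lies on chromosome 6 (122847138 to 122856161, minus strand) and held 281, 208 and 243 TPM, a mean of 244 ± 36.5 (SD, n = 3), the 136th place. C5ar1, encoding the C5a receptor, lies on chromosome 7 (16246743 to 16259540, minus strand) and held 31.9, 49.1 and 44.5 TPM, a mean of 41.8 ± 8.89, the 1133rd place. C3ar1 exceeded C5ar1 by 8.80, 4.23 and 5.46 times, with no overlap of their ranges. Replicate 1 was the highest library for C3ar1 and the lowest for C5ar1. C5ar2, encoding the second C5a receptor and adjacent to C5ar1 at 2.59 kb, held only 1.05, 0.84 and 1.15 TPM. Hc, the gene of C5 itself, had 0, 1 and 0 counts.

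Receptors for deposited complement and for C1q were also present, and 6 of 10 listed receptor genes were at 1 TPM or more in every library. Itgb2 and Itgam encode the chains of complement receptor CR3. They held 103, 87.2 and 138 TPM and 52.7, 25.7 and 48.7 TPM, respectively. Cd93 and Lrp1, both described as taking part in uptake of C1q-bearing material, held 57.6, 53.3 and 64.1 TPM and 81.1, 74.2 and 148 TPM.

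In order of mean TPM the members ran C1qb, C1qc, C1qa, C3ar1, Cfp, Cfb, C3, C5ar1 and Serping1. Neighbours whose ranges over the 3 libraries were apart were C1qc and C1qa, Cfp and Cfb, C3 and C5ar1, and C5ar1 and Serping1. The ranges overlapped for C1qb and C1qc, C1qa and C3ar1, C3ar1 and Cfp, and Cfb and C3. In the tables made from the reads the ranges of C3 (24.3 to 47.9 TPM) and C5ar1 (13.0 to 25.5 TPM) overlapped as well, although C3 was higher in each library.

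The libraries were then compared with each other, to see which complement genes varied beyond counting error. A chi-square test of the counts against TMM-scaled library sizes, adjusted by Benjamini-Hochberg over 13636 genes, was passed at 0.05 by all 8 members with enough counts, but 75.6% of all genes passed it too. With the further demand that the highest library be at least 2 times the lowest, 16.2% of genes were called and 1 of the 8 members, Cfb. The share called was 8.21% among protein-coding genes alone and 4.81% of all genes tested without replicate 3. The ratio of Cfb was 2.13, above that of 92.3% of protein-coding genes. C1qb, C1qc and C1qa had ratios of 1.15, 1.19 and 1.29 beside a median of 1.27 over 11540 protein-coding genes. C3ar1, C3, Cfp and C5ar1 lay between 1.36 and 1.48. The Cfb call rests on replicates 1 and 2: without either of them 0 members were called, and without replicate 3 Cfb was called. The share of all genes called was 14.4% without replicate 1 and 13.9% without replicate 2.

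The direction of the spread differed among the members. Cfb deviated from its mean by 0.51, -0.57 and 0.06 in replicates 1, 2 and 3 on the log2 scale of TMM-scaled CPM. A list of 10 interferon-stimulated genes had medians of 0.42, -0.26 and -0.19 on that scale, and 10 of 10 were highest in replicate 1 and 7 of 10 lowest in replicate 2, although none was called. What part such a difference has in the values of Cfb was not tested. Cfp went the other way, with -0.32, 0.17 and 0.15. The 3 neutrophil markers with enough counts were also lowest in replicate 1, with medians of -0.50, 0.31 and 0.23, and 1 of the 3 was called. The 8 neutrophil markers summed to 5.27, 9.18 and 10.3 TPM and Ly6g was at 0, against 167 to 271 TPM for Cfp, and their part in the Cfp values was not tested.

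The scale decides which library is highest for several members. By TMM-scaled counts the C1q chains were highest in replicate 1 and lowest in replicate 2, and by TPM highest in replicate 3 and lowest in replicate 2. C3ar1 was lowest in replicate 3 by TMM-scaled counts and in replicate 2 by TPM. C5ar1 was lowest in replicate 3 by the first scale and in replicate 1 by the second. Cfb was highest in replicate 1 and lowest in replicate 2 on both. Malat1, a nuclear RNA, held 158, 91.0 and 1343 TPM, so replicate 3 stood apart in this nuclear RNA, and its part in these values was not tested.

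**Figure D3:**
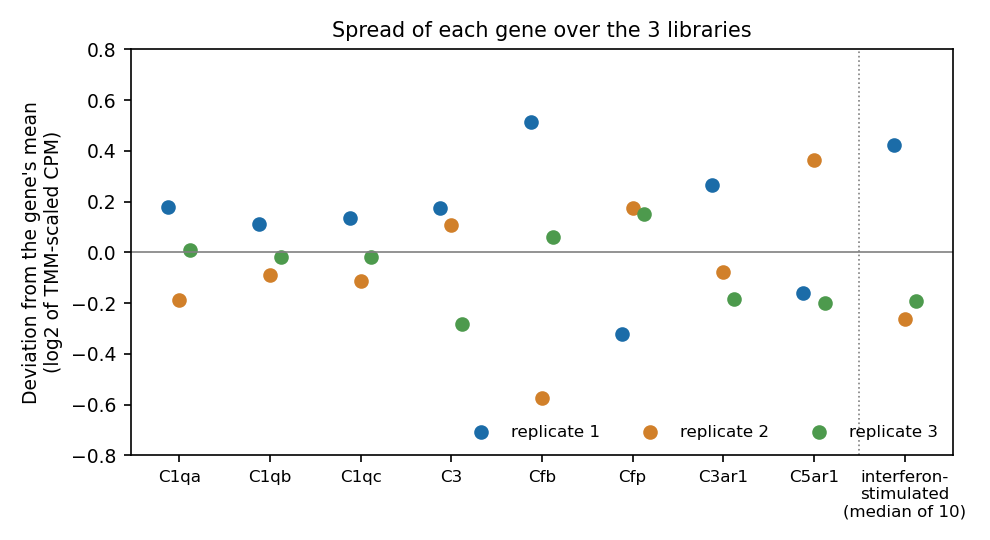
Deviation of each library from the gene's mean (log2 of TMM-scaled CPM) for the 8 members with enough counts and, right of the dotted line, the median of 10 interferon-stimulated genes. Cfb spans the widest range, from 0.51 in replicate 1 to -0.57 in replicate 2, and the C1q chains lie within -0.19 to 0.18.

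At the transcript level, Cfb and C5ar1 were the members whose RNA was split between several coding models. For Cfb the alignment-based tables put 44.5, 35.8 and 45.7% of TPM on Cfb-202, 35.1, 37.8 and 35.6% on Cfb-206 and 17.4, 20.7 and 16.3% on the shorter Cfb-204. The tables made from the reads put 50.3, 44.4 and 37.8% on Cfb-202 but 29.2, 31.3 and 41.2% on Cfb-201, which the alignment-based tables left at 0.0267% or less. They gave lower shares to Cfb-206, at 15.4, 18.4 and 15.5%, and to Cfb-204, at 2.92, 2.56 and 2.20%. Cfb also overlaps the annotated gene Gm20547, listed at 0 TPM, and starts 85 bases from C2. All 3 genes are annotated on the minus strand.

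For C5ar1 the alignment-based tables put 62.9, 54.3 and 51.4% of TPM on C5ar1-201, a mean of 56.2%. The tables made from the reads gave C5ar1-201 24.8, 24.0 and 20.7%, C5ar1-202 48.7, 34.6 and 41.0% and C5ar1-203 26.6, 41.4 and 38.3%. In those tables C5ar1-202 led in replicates 1 and 3 and C5ar1-203 in replicate 2, so the leading model differed between the 2 kinds of table.

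**Figure D4:**
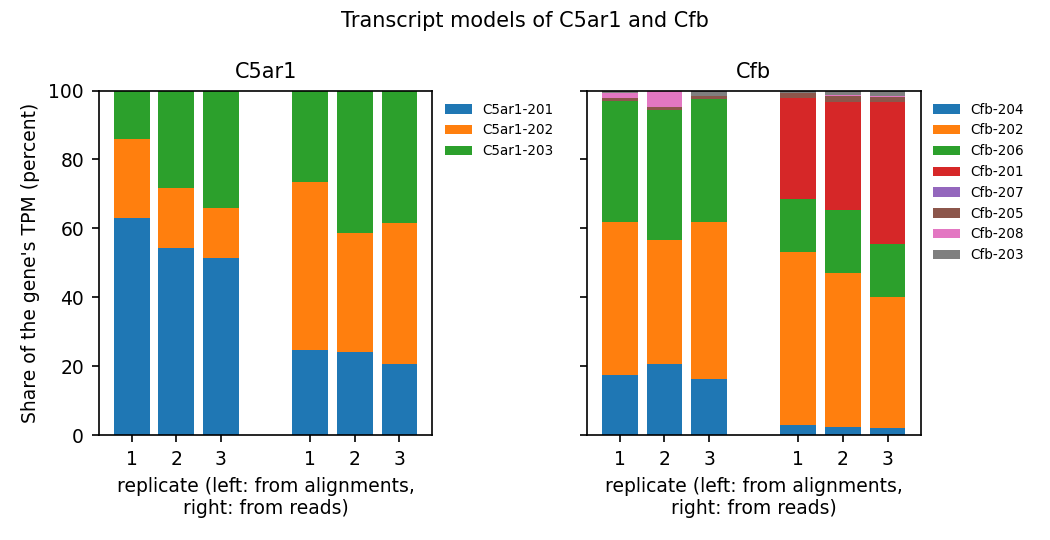
Share of each transcript model in the TPM of C5ar1 (left panel) and Cfb (right panel), per library, from the alignment-based tables (left bars) and from the tables made from the reads (right bars). C5ar1-201 falls from 51.4 to 62.9% in the first to 20.7 to 24.8% in the second, and Cfb-201 reaches 29.2 to 41.2% in the second and 0.0267% or less in the first.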

How the data were processed

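Cytosolic ribosomal RNA-depleted libraries (n = 3, 1 group) were analysed. The authors deposited gene tables with expected counts (estimated, not whole), TPM and FPKM, transcript tables with TPM and the percent of each gene's abundance per transcript, and transcript tables made directly from the reads, on mm10 with annotation M21, per the file headers and the deposited README. The aligner, quantifier and strand setting were not given in the sources used here. Rows naming no gene held 0.418, 0.248 and 0.165% of counts and were left out.

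Levels are the deposited TPM, with a pseudocount of 1 on the log2 scale. Expected counts were rounded, genes with a mean of 10 or more were tested, and library sizes were scaled by TMM (edgeR 4.0.16; DESeq2 1.42.0 size factors as an alternative). With 1 group, no model between groups could be fitted. The chi-square script was tested on simulated data. Promoter windows are RefSeq's; coding sequences come from GENCODE M21.

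The members and lists were chosen with earlier results of these data known. Named genes are all members, listed complement genes averaging at least 10 TPM, the highest gene of a step that would have no named gene, relatives of members (C2, C5ar2, C4b, C1ra and C1s1), and the 3 highest markers of other cells; Cfd, Cd55, Cd59a and Hc, and the neighbours of members, were added after their values were seen. Alternatives tried were other pseudocounts, thresholds, units and scalings, and each library left out.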

Additional observations from a re-analysis of the deposited data

How the results depend on the processing

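The log2 difference between C1q chains and alternative components was 2.16 to 2.21 with each library left out and 2.17 to 2.19 with posterior mean TPM, FPKM or a pseudocount of 0.1. It was 2.25 from the tables made from the reads, 2.77 with the median gene of each arm and -0.10 with Serping1 on the classical side, since that gene is near 0 TPM. The count of 8 members at 1 TPM or more was the same under every alternative run, and that of all listed complement genes ran from 13 to 20. The 2203 genes that differed between libraries became 3997 without the count minimum, 3704 at a ratio of 1.5, 1464 at a ratio of 3, 947 among protein-coding genes alone, and 608 (without replicate 3) to 2034 with a library left out. Members called were 0 at a ratio of 3, where 10.7% of genes were called. With a library left out 0 to 1 members were called, beside 4.81 to 14.4% of genes. Under DESeq2 size factors Cfb was called, as were 16.2% of genes. All 9 levels fell in the tables made from the reads and rose with TPM rescaled to protein-coding genes: C1qb, at 1007 TPM, was 372 and 3354, C3, at 100.0 TPM, 37.9 and 335, and Serping1, at 0.0467 TPM, 0.0198 and 0.157, and 0.0933 with posterior mean TPM. No paired analysis was possible because all libraries belong to 1 group. Depth limits Serping1 alone among the members.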

Other observations

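Genes related to the complement members were looked up in lists drawn up after the data had been seen, and are given as levels. Of all protein-coding genes, 41.2% were at 1 TPM or more in every library. Of 27 genes of the C1q and TNF-related family, which share the globular head of C1q, 4 were at 1 TPM or more in every library and 12 had no counts. The highest were the extracellular matrix genes Emilin2 (17.8 ± 5.99 TPM) and Emilin1 (11.5 ± 3.72 TPM; SD, n = 3). Calr, encoding calreticulin, which binds the collagen-like part of C1q, held 244 ± 39.1 TPM, whereas the pentraxin genes Ptx3 and Apcs had no counts. Of 11 genes of proteases able to act on C3 or C5, 8 reached 1 TPM in every library, beside the 41.2% of protein-coding genes. Ctsb and Ctss, encoding lysosomal cathepsins, held 2218 ± 210 and 1363 ± 262 TPM, Ctsl 119 ± 18.6 TPM and the membrane metalloproteinase gene Mmp14 83.1 ± 11.5 TPM (SD, n = 3). F2 and F12, the genes of prothrombin and coagulation factor XII, had no counts.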
